A study of Mus musculus with 4 samples.

Results

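The transcription factors described here are 10 genes that shape effector regulatory T (Treg) cells: *Irf4*, *Batf*, *Prdm1*, *Ikzf1*, *Ikzf3*, *Bhlhe40*, *Nfil3*, *Tbx21*, *Bcl6* and *Id2*. They were taken by gene symbol from the 53379 genes of the expression table, in which each of the 10 names a single protein-coding gene. Treg cells were sorted as CD3+CD4+YFP+ cells from the large intestine (LI) of C57BL/6 mice. Control mice were Foxp3Cre-YFP Setd2 f/+, with 1 floxed and 1 intact copy of *Setd2*, and KO mice were Foxp3Cre-YFP Setd2 f/f. All mice of both groups thus carried a Cre-YFP fusion that is driven from the *Foxp3* locus. The fusion deletes floxed alleles in Foxp3-expressing cells, so Treg cells of neither group were meant to have 2 intact copies of *Setd2*. Each group had 2 libraries, and each library was a pool of cells from 2 to 3 littermates (about 200000 cells by the sample records and 500000 by the methods), so the spread within a group is that between pools of mice. The mice of the study were adults of 6 to 12 weeks and of both sexes unless otherwise specified. *Setd2* encodes the enzyme that places trimethylation on lysine 36 of histone H3, a mark of transcribed gene bodies, and the comparison asks how LI Treg cells differ when it is deleted.

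Effector Treg cells are antigen-experienced Treg cells that settle in tissues such as the gut wall and make suppressive and repair factors. IRF4 and BATF, induced by signals from the T cell receptor, bind DNA together and open the effector programme, and PRDM1 (Blimp-1) acts later and promotes *Il10* expression. BCL6 represses *Prdm1* and is repressed by it, T-bet (*Tbx21*) marks Treg cells of type 1 responses, and the Ikaros family members IKZF1 (Ikaros) and IKZF3 (Aiolos) bind shared sites as dimers. ID2 has no DNA-binding region and holds E proteins away from DNA, while BHLHE40 and NFIL3 are repressors that bind an E-box and a site of the PAR bZIP factors, respectively.

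The promoters of the members were read for the short cores that these factors recognise. RefSeq promoters of GRCm38.p6, running from 250 bases before to 50 bases after a transcription start, were matched by symbol to 8 of the 10 genes, with 2 starts each for *Bcl6* and *Ikzf1*, and so numbered 10. *Bhlhe40* and *Ikzf3* were not among them. The 3 sequences below are printed 5′ to 3′ on the strand of the gene, because *Id2* was the member with the strongest difference between groups and *Prdm1* and *Bcl6* are the antagonistic pair. Capitals mark the E-box CANNTG in *Id2*, the AP-1 element TGANTCA, bound by BATF with JUN proteins, in *Prdm1*, and TTCNNNGAA, the core that BCL6 and STAT proteins share, in *Bcl6*.
Id2, minus strand, chr12:25096043-25096342: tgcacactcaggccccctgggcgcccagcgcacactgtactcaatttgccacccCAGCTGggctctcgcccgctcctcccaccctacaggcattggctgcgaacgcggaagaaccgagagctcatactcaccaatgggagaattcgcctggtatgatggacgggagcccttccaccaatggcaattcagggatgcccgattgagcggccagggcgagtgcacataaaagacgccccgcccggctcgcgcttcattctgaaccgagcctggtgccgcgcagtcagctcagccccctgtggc
Prdm1, minus strand, chr10:44458699-44458998: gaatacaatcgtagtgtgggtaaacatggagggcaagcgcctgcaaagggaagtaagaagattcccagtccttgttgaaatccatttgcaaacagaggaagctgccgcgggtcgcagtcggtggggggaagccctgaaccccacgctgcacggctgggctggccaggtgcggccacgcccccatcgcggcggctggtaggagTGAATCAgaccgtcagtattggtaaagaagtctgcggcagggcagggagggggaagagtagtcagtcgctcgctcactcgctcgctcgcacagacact
Bcl6, minus strand, chr16:23981234-23981533: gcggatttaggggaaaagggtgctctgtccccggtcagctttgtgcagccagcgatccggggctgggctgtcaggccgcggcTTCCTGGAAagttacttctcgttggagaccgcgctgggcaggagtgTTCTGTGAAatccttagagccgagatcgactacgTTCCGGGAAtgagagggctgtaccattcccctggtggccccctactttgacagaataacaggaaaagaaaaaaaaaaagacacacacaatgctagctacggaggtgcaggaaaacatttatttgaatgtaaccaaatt

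The *Id2* promoter was rich in G and C (63.3%, against a median of 52.7% over 32851 promoters), with 21 CpG dinucleotides against a median of 7. Its single E-box, CAGCTG, began at position -196, counted from the start. The start lies inside the span that GENCODE gives the gene, and so do those of the *Prdm1* and *Bcl6* promoters printed above. For *Bcl6*, the promoter that is not printed lies at the upstream end of that span. An E-box CANNTG was found in 7 of the 10 member promoters and in 72.3% of all promoters. The AP-1 element began at -48 of *Prdm1* and was in no other member promoter, and 7.81% of all promoters held it. The *Bcl6* promoter printed above held 3 copies of TTCNNNGAA, beginning at -168, -122 and -88. The other *Bcl6* promoter and 1 of those of *Ikzf1* held 1 copy each, while 8.30% of all promoters held any and 11 (0.0335%) held 3 or more.

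The remaining cores were searched on both strands as well. CACGTG, the E-box of BHLHE40 and 1 form of CANNTG, was in the other *Bcl6* promoter and in 7.15% of all promoters. GTGAAAG, the PRDM1 core, was in the *Batf* promoter at -163 and in 4.24% of all. TGGGAA, the Ikaros core, was in those of *Prdm1*, *Tbx21* and *Batf* and in 25.6% of all. TTANGTAA of NFIL3 and the T-box TCACACC were in none of the 10 member promoters, against 2.32% and 3.98% of all. These are matches of letters in short windows. No binding was measured in these libraries.

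RNA levels are in FPKM, the fragments mapped to a gene relative to its length and to all mapped fragments, which allow genes to be compared per length. The 4 libraries share the same or nearly the same value at the same rank, so their depth is unknown and no interval for counting error can be given. The methods do not name the step behind this, and levels and ratios between genes may differ from those before it. A difference in RNA per cell and one in the make-up of the sorted cells cannot be told apart in bulk samples. *Setd2* itself had 38.19 and 27.36 FPKM in control and 26.33 and 36.30 in KO (log2 fold change -0.06, adjusted p = 0.927 by limma with Benjamini-Hochberg adjustment). The levels overlapped, and a sum over the whole gene does not show whether the floxed exon is there. The genotype could thus not be checked in these libraries. By other methods, the paper reports loss of Setd2 protein in splenic KO Treg cells. It also reports a strong drop of the histone mark in KO Treg cells of spleen and LI. The Treg genes *Ctla4*, *Il2ra* and *Ikzf2* were clearly present, while *Foxp3* was low, with 2.62 and 5.61 FPKM in control and 4.66 and 3.05 in KO. The summed FPKM of marker lists was 132 to 190.0 over 8 B and plasma cell genes (2 of them below 1 in all libraries), 262 to 324 over 8 myeloid genes (1 below 1), 43.0 to 47.3 over 8 epithelial genes (5 below 1), 37.5 to 55.2 over 7 stromal and endothelial genes (5 below 1) and 2.51 to 3.61 over 5 CD8 T and NK cell genes (4 below 1). The stromal and endothelial sum was higher in both KO libraries than in either control library. Most of this sum was a single gene, *Pecam1* (34.65 and 36.26 FPKM in control, 49.25 and 42.72 in KO). Of the Treg genes, *Ctla4* was higher and *Ikzf2* lower in KO at an unadjusted p below 0.05. Of the tested marker genes of other cells, *Epcam* was lower and *Krt18* and *Pecam1* were higher in KO at that threshold. None of these genes passed the adjusted threshold. The part of the other cells in the levels below was not tested.

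The members spanned mean levels from 1366 to 3.98 FPKM in control and from 864 to 3.14 in KO, in the same order in both groups. *Id2* was the highest, followed by *Bhlhe40*, *Batf*, *Nfil3*, *Ikzf3*, *Prdm1*, *Irf4*, *Ikzf1*, *Bcl6* and *Tbx21*. In each group, every member lay outside the range of the next except *Bcl6* and *Tbx21*, whose libraries overlapped. Among the 7639 genes tested, *Id2* ranked 83, *Bhlhe40* 150, *Batf* 266, *Nfil3* 409 and *Ikzf3* 558 by mean level, and *Prdm1*, *Irf4* and *Ikzf1* ranked 1958, 2723 and 3818. *Id2* and *Bhlhe40*, the highest, also had the shortest gene spans on the chromosome (3.34 and 6.30 kb). *Prdm1* and *Ikzf1* had the longest, with 91.3 and 87.9 kb, and the span of *Ikzf3* was 81.1 kb. *Bcl6* and *Tbx21*, the factors of follicular and type 1 T cells, were thus at the low end.

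**Figure D1:**
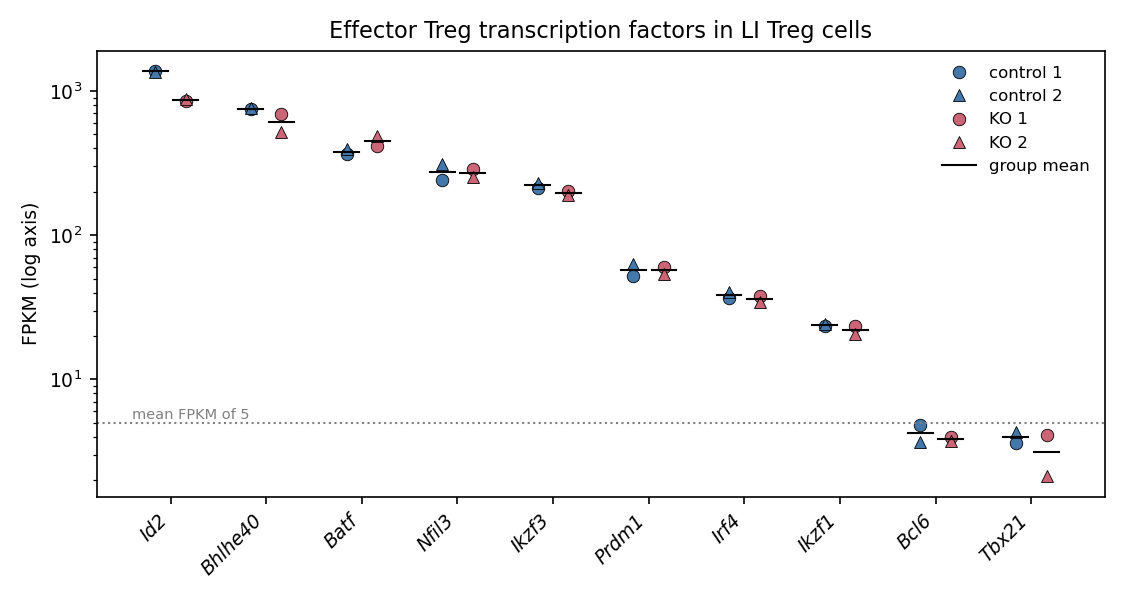
FPKM (log axis) of the 10 transcription factors in 2 control libraries (blue) and 2 KO libraries (red), each point being 1 pool of mice and each black line a group mean. The order is the same in both groups, and *Id2* has its control libraries at 1355.07 and 1376.13 and its KO libraries at 847.0 and 881.01, while *Bcl6* and *Tbx21* lie under the dotted line at 5.

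KO was compared with control by limma on log2(FPKM + 1), over the 7639 protein-coding genes whose mean FPKM exceeded 5 in at least 1 group. 8 of the 10 members were tested, and *Bcl6* and *Tbx21* were too low. At an adjusted p below 0.05, no member was called, against 0.589% of all genes tested. At an unadjusted p below 0.05, the study's criterion, 1 member was lower in KO, against 7.57% of all genes, and none was higher, against 8.61%. 7 of the 8 estimates were negative, with a median log2 fold change of -0.10 against -0.00 over all genes. 4 of the 8 had groups that did not overlap (against 47.1% of all genes), namely *Id2*, *Bhlhe40*, *Batf* and *Ikzf3*. The count of members called and that of separate groups were thus near those of genes in general.

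*Id2*, the inhibitor of E proteins (chr12:25093799-25097140, minus strand, GRCm38), carried the clearest difference. Its level was 1376.13 and 1355.07 FPKM in control 1 and 2, and 847.0 and 881.01 in KO 1 and 2. Each KO value was far below each control value, and the libraries of each group lay close together. The means were 1366 ± 14.9 in control and 864 ± 24.0 in KO (SD, n = 2 pools each). The log2 fold change was -0.66 (SE 0.10, 95% interval -0.90 to -0.42), a level in KO of 0.633 times that in control. By limma, p was 0.000311 before and 0.0511 after adjustment, so *Id2* was the gene ranked 46 by p where 45 genes passed the adjusted threshold. Without control 2 the adjusted p was 0.0383. Over the remaining alternatives, a crossed pairing apart, it stayed above the threshold and reached 0.314 without KO 2, while the log2 fold change stayed between -0.69 and -0.63. *Gm6175*, whose transcript is 91.8% identical to that of *Id2* over 380 bases, was listed at 0 in all libraries.

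*Id2* was by far the highest of the ID genes. Its paralogues *Id1* and *Id3*, which also hold E proteins off DNA, had 7.31 and 5.99 (*Id1*) and 20.0 and 18.83 FPKM (*Id3*) in control, and 8.65 and 6.42 and then 12.76 and 11.24 in KO. *Id2* was 97.5% to 98.2% of the sum of these 3 genes in each library, and *Id4*, left out of the sum, was at or below 0.08 FPKM. In *Id3* the KO libraries were also the lower ones, with no overlap (log2 fold change -0.65, SE 0.16, unadjusted p = 0.00401 and adjusted p = 0.120 by limma). The ratio of *Id2* to *Id3* was 66.4 to 78.4 in FPKM across the 4 libraries. Its log2 value, of FPKM + 1, differed by -0.01 between groups (exact permutation test, two-sided, p = 1.0, where the smallest p that 2 libraries against 2 allow is 0.333). The difference was 0.03 with a pseudocount of 0.1 and -0.13 with 5. *Id1* overlapped between groups (log2 fold change 0.15, 95% interval -0.38 to 0.68).

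The partners of ID2 were at far lower levels. *Tcf12* (HEB), the highest of the 3 E protein genes, had 21.98 and 22.02 FPKM in control and 24.30 and 26.15 in KO (log2 fold change 0.19, 95% interval -0.13 to 0.51). *Tcf3* (E2A) had 2.27, 4.40, 2.68 and 1.95 FPKM, and *Tcf4* (E2-2) 2.96, 5.92, 3.84 and 5.02, in control 1, control 2, KO 1 and KO 2. Both were under the level for testing, and their groups overlapped. The sum of *Id1*, *Id2* and *Id3* over that of the E protein genes was 51.6 and 42.7 in the control libraries and 28.2 and 27.1 in the KO libraries. The KO ratios lay below both control ratios and their mean was 0.587 times that of control, while the E protein sums overlapped (27.2 and 32.3 against 30.8 and 33.1 FPKM). Because *Id2* made up nearly all of the ID sum, this ratio largely repeats the difference in *Id2* and is not a separate result.

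**Figure D2:**
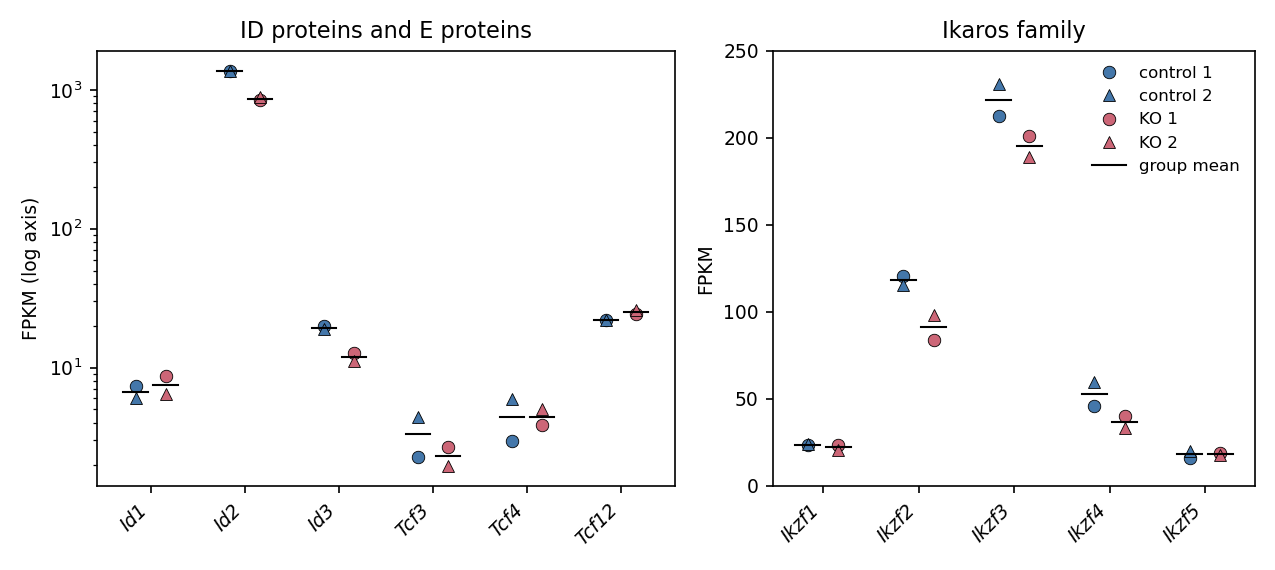
Left, FPKM (log axis) of the ID genes and the E protein genes, and right, FPKM (linear axis) of the Ikaros family, with 2 control libraries (blue), 2 KO libraries (red) and group means (black lines). *Id2* stands over 60-fold above *Id3*, both are lower in KO, and *Ikzf3* is the highest Ikaros gene.

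*Bhlhe40*, a repressor that T cells induce on activation (chr6:108660629-108666925, plus strand), had 749.94 and 758.38 FPKM in control 1 and 2, 697.03 in KO 1 and 522.1 in KO 2. The groups did not overlap, but the KO pools were far apart, and KO 1 was close to the control libraries. The log2 fold change was -0.32 (SE 0.15, 95% interval -0.67 to 0.03, adjusted p = 0.343 by limma). Without KO 1 it was -0.53, with an unadjusted p of 0.00924, and without KO 2 it was -0.11, with an unadjusted p of 0.470. Its paralogue *Bhlhe41* had 8.85 and 6.73 FPKM in control and 5.70 and 6.71 in KO (log2 fold change -0.28, 95% interval -0.79 to 0.23). The antisense gene *0610040F04Rik* shares 118 exon bases with *Bhlhe40* and reached no more than 0.17 FPKM.

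*Batf*, the AP-1 partner of IRF4 (chr12:85686669-85709087, plus strand), was the only tested member with a positive estimate. It had 365.09 and 395.65 FPKM in control 1 and 2, 415.43 in KO 1 and 485.5 in KO 2. The groups did not overlap, and the difference between their means (380 ± 21.6 and 450 ± 49.5) was larger than the SD within either. The log2 fold change was 0.24 (SE 0.12, 95% interval -0.04 to 0.52, adjusted p = 0.383 by limma), so neither no difference nor an increase of 43.6% was outside the interval. Without KO 2 the estimate was 0.13, with an unadjusted p of 0.436.

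*Irf4* (chr13:30749226-30766976, plus strand) had 36.94, 40.68, 37.93 and 34.43 FPKM in control 1, control 2, KO 1 and KO 2, and its groups overlapped. Its log2 fold change was -0.10 (95% interval -0.41 to 0.21, adjusted p = 0.777 by limma). *Batf* thus exceeded *Irf4* by 9.73-fold to 14.1-fold in FPKM across the 4 libraries. On the scale of FPKM + 1, the log2 ratio of *Batf* to *Irf4* was 3.27 and 3.25 in control and 3.42 and 3.78 in KO. Both KO ratios were above both control ratios, by 0.34 on average (exact permutation test, two-sided, p = 0.333, the smallest possible here).

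*Prdm1* (chr10:44437177-44528501, minus strand), the effector gene that encodes Blimp-1, had 52.27, 62.72, 60.50 and 53.55 FPKM in control 1, control 2, KO 1 and KO 2. The KO libraries lay between the control libraries. The log2 fold change was -0.01 (95% interval -0.34 to 0.32, adjusted p = 0.987 by limma). Its antagonist *Bcl6* (chr16:23965052-23988852, minus strand) had 4.85 and 3.70 FPKM in control and 3.97 and 3.75 in KO, again with the KO libraries between those of control. Tested with a lower filter, a mean FPKM above 1, its log2 fold change was -0.11 (adjusted p = 0.869 by limma). *Prdm1* exceeded *Bcl6* by 10.8-fold to 17.0-fold in FPKM across the 4 libraries, and the log2 ratio of FPKM + 1 differed by 0.10 between groups (exact permutation test, two-sided, p = 1.0).

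*Nfil3* (chr13:52967209-52981073, minus strand), a bZIP repressor, had 241.07 and 309.65 FPKM in control 1 and 2, and 288.29 and 253.57 in KO 1 and 2. As for *Prdm1*, the KO values lay between those of control. Its log2 fold change was -0.02 (95% interval -0.36 to 0.33, adjusted p = 0.978 by limma). *Tbx21* (chr11:97098071-97115331, minus strand) had 3.64 and 4.32 FPKM in control and 4.15 and 2.13 in KO. KO 2 was the lowest library and KO 1 was within the control range. With the lower filter its log2 fold change was -0.31 (adjusted p = 0.658 by limma).

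*Ikzf3*, which encodes Aiolos (chr11:98464902-98546031, minus strand), had 212.45 and 230.67 FPKM in control and 201.2 and 189.02 in KO. The groups did not overlap, by a narrow margin. Its log2 fold change was -0.18 (95% interval -0.44 to 0.08, adjusted p = 0.459 by limma). *Ikzf1*, which encodes Ikaros (chr11:11685003-11772926, plus strand), had 23.34 and 24.24 FPKM in control and 23.50 and 20.77 in KO. KO 1 was within the control range, and the log2 fold change was -0.10 (95% interval -0.44 to 0.24, adjusted p = 0.787 by limma). Genes that overlap *Ikzf1* (*Gm11999* and *Gm12000*) reached at most 0.73 FPKM, and those that overlap *Ikzf3* (*Gm25106*) and *Bcl6* (*Gm37419*) were listed at 0.

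The Ikaros family as a whole was led by *Ikzf3*, which made up 50.8% to 54.7% of the summed FPKM of the 5 genes, whereas *Ikzf1* made up 5.38% to 6.39%. *Ikzf2*, which encodes Helios and marks many Treg cells of thymic origin, had 120.75 and 115.57 FPKM in control and 84.12 and 98.36 in KO (log2 fold change -0.37, unadjusted p = 0.0183 and adjusted p = 0.222 by limma). *Ikzf4*, which encodes Eos, a partner of FOXP3, had 45.74 and 59.73 in control and 40.21 and 33.49 in KO (log2 fold change -0.50, unadjusted p = 0.0204 and adjusted p = 0.222 by limma). *Ikzf5* overlapped between groups, with 16.07, 20.18, 18.74 and 17.78 FPKM. The family sum was 418 and 450.4 FPKM in control and 368 and 359 in KO, so that both KO sums were below both control sums. The log2 ratio of *Ikzf1* to *Ikzf3*, of FPKM + 1, differed by 0.08 (exact permutation test, two-sided, p = 0.333).

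**Figure D3:**
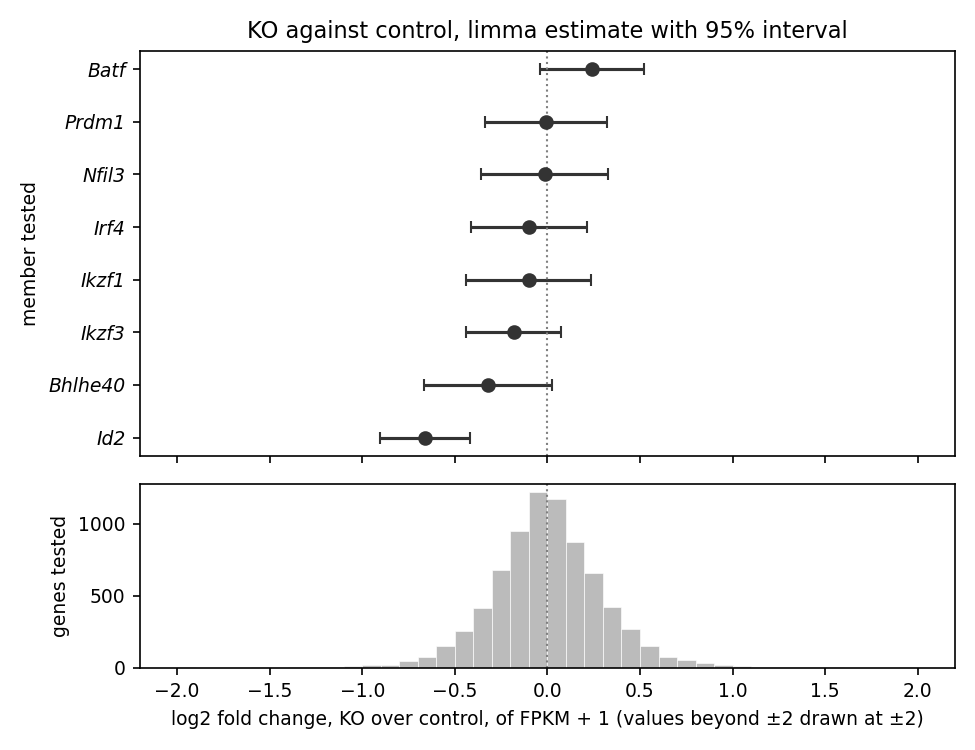
Top, log2 fold change (KO over control, of FPKM + 1) of the 8 tested transcription factors with 95% intervals from limma, and bottom, the distribution of the same quantity over the 7639 genes tested. The interval of *Id2* alone lies below 0, and the other 7 cover 0.

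Apart from *Id2*, the intervals of the 7 other members tested ran from -0.67 to 0.52 on the log2 scale. The widest extended 0.35 to each side of its estimate, against a median of 0.39 over all genes tested. Differences of the size seen for *Id2* were therefore outside the intervals of *Batf*, *Irf4*, *Prdm1*, *Nfil3*, *Ikzf1* and *Ikzf3*. That of *Bhlhe40* still held it. A p above the threshold does not show that the other members were the same in both groups.

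The libraries of a group also differed from each other in a way that several members shared, which was noticed after the values were seen. In 6 of the 8 members tested, control 2 was above control 1 and KO 1 above KO 2, against 30.7% of all genes tested. *Id2* and *Batf* were the exceptions. 5 of 6 tested genes of the JUN and FOS families, of which the JUN proteins pair with BATF, showed it as well. *Jund* did not. *Junb*, the highest, had 1206.85 and 2771.52 FPKM in control 1 and 2 and 1790.25 and 813.41 in KO 1 and 2, and *Jun* had 80.03, 138.52, 83.68 and 54.92. The spread of *Junb* within each group was wider than the difference between the group means (log2 fold change -0.60, 95% interval -1.64 to 0.44). The part of this pattern in the results of the members was not tested.

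**Figure D4:**
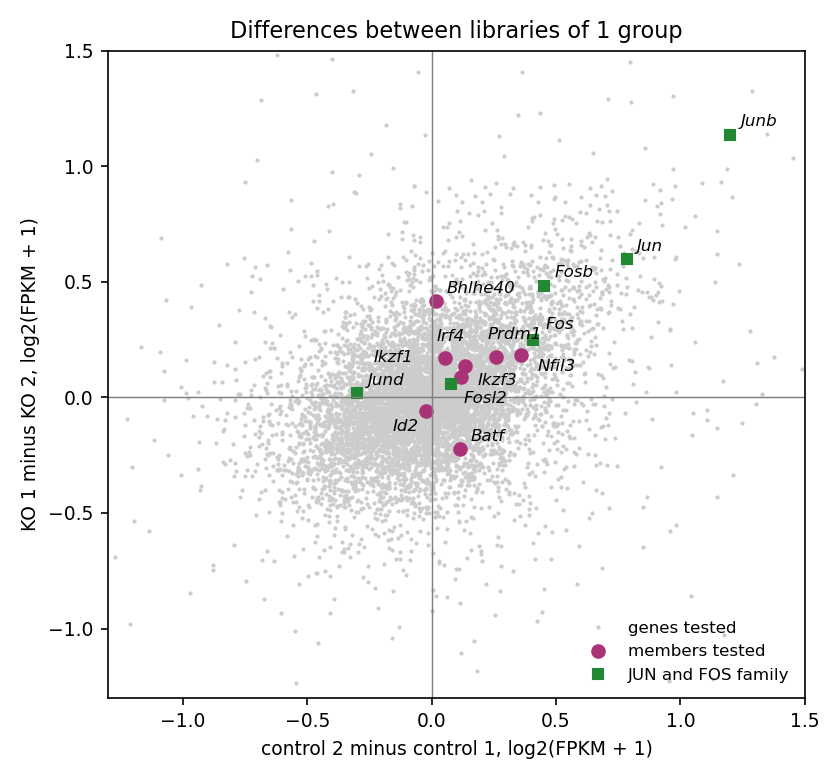
Difference between control 2 and control 1 (x axis) and between KO 1 and KO 2 (y axis) on the log2(FPKM + 1) scale for the genes tested (grey), with 8 members (purple) and 6 genes of the JUN and FOS families (green). *Junb* and *Jun* lie at the upper right, 6 members lie in the same quadrant, *Id2* lies near the centre, and 27 grey points fall outside the axes.

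The relatives and partners of the members were counted next, as a list of 35 genes chosen with earlier results of these data known. Of these, 24 were tested. None was called at an adjusted p below 0.05. At an unadjusted p below 0.05, 4 of the 24 were lower in KO, against 7.57% of all genes, and 0 were higher, against 8.61%, and the median log2 fold change was -0.13 against -0.00 over all genes. The count was 8 without control 1 and 2 without KO 2. The 4 were *Id3*, *Ikzf2* and *Ikzf4*, described above, and *Fosl2*, an AP-1 gene with 35.05 and 37.09 FPKM in control and 27.77 and 26.62 in KO (log2 fold change -0.39, adjusted p = 0.222 by limma). *Batf3*, the closest relative of *Batf*, was at or below 0.16 FPKM in all libraries.

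A list of 13 factors linked to resting T cells (*Bach2*, *Tcf7*, *Lef1*, *Klf2*, *Foxo1* and others), chosen in the same way, was tested in full. None was called at either threshold. Their log2 fold changes ran from -0.46 to 0.18 with a median of -0.14, and the smallest unadjusted p was 0.0702 (*Klf3*, 12.20 and 11.24 FPKM in control).

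Genes that effector Treg cells make were the last list, with 25 of 25 tested. 2 fell at an adjusted p below 0.05 and 0 rose, where 0.589% of all genes were called in either direction. At an unadjusted p below 0.05, 10 were lower, against 7.57% of all genes, and 3 were higher, against 8.61%. The list was chosen with earlier results of these data known. It holds genes that the paper reports as changed, such as *Il1rl1* and *Cxcr3*, so these counts do not test for enrichment. The median log2 fold change was -0.06, near that of all genes. *Penk*, which encodes the opioid precursor proenkephalin, fell from 1068.05 and 1031.87 FPKM to 385.95 and 450.15 (log2 fold change -1.33, SE 0.12, adjusted p = 0.0101 by limma). *Il1rl1*, which encodes the IL-33 receptor ST2, fell from 406.45 and 487.69 FPKM to 233.13 and 233.85 (log2 fold change -0.93, SE 0.12, adjusted p = 0.0344 by limma). Both estimates were larger than that of *Id2*. Without KO 1 or without KO 2 neither passed the adjusted threshold, and the adjusted p ranged from 0.00320 to 0.270 for *Penk* and from 0.0126 to 0.326 for *Il1rl1* over the alternatives other than the crossed pairing.

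5 more genes of this list are named for their small p. *Cd83* (log2 fold change -1.06), *Tnfrsf9* (-0.76), which encodes 4-1BB, and *Pdcd1* (-0.85), which encodes PD-1, had lower values in KO, with adjusted p = 0.0565, 0.0741 and 0.0816 by limma. *Cxcr3* (log2 fold change 0.75), a chemokine receptor that T-bet is known to induce, and *Ctla4* (0.44) had higher values, with adjusted p = 0.0821 and 0.132. *Cxcr3* had 29.43 and 37.30 FPKM in control and 56.18 and 56.89 in KO. *Tbx21* was under the level for testing, with 3.64 and 4.32 FPKM in control and 4.15 and 2.13 in KO. A link between these genes was not tested. *Il10*, which Blimp-1 promotes, had a log2 fold change of 0.06 (95% interval -0.19 to 0.30), beside -0.01 for *Prdm1*.

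**Figure D5:**
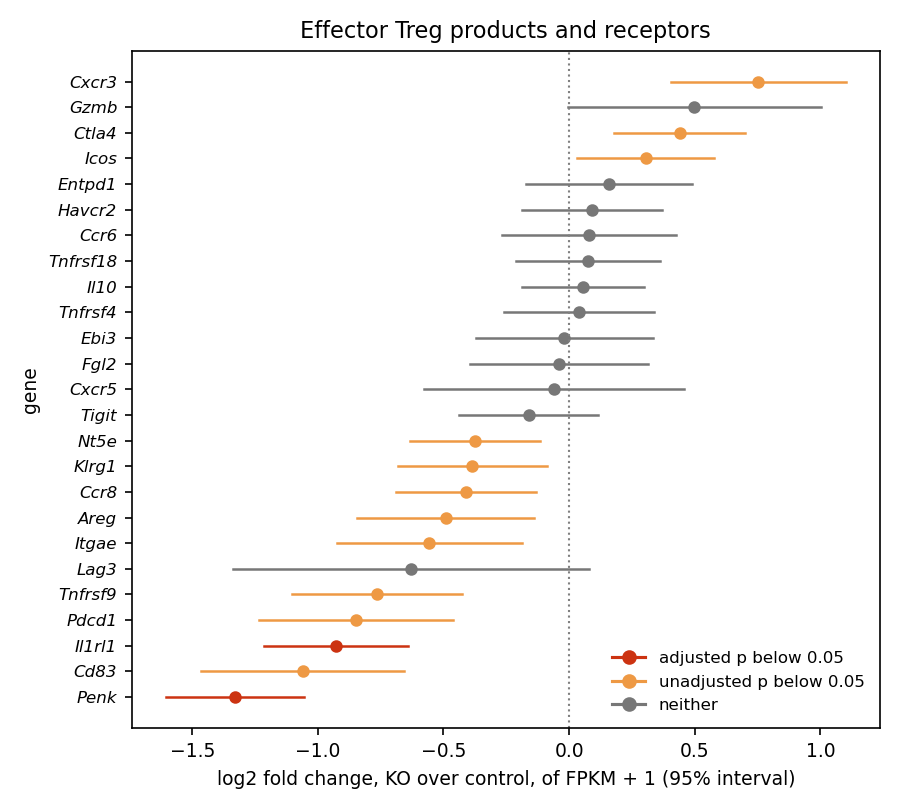
Log2 fold change (KO over control, of FPKM + 1) with 95% intervals from limma for 25 products and receptors of effector Treg cells, coloured by the test passed. *Penk* and *Il1rl1* (red) fell at an adjusted p below 0.05, 11 more pass the unadjusted threshold only (orange), and the list spreads to both sides of 0.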

How the data were processed

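RNA-seq of LI Treg cells, 2 control and 2 KO libraries, was used. Paired reads of 150 bp were, per the labels and the methods, aligned by the authors with STAR v2.5 (GRCm38) and quantified with RSEM v1.2 and GENCODE M16. The authors deposited FPKM, rounded to 2 decimals, with a common distribution in the 4 columns. The methods do not name that step, and depth and total mRNA cannot be read from it.

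Gene types and positions came from GENCODE M21 (GRCm38), in which 53274 of 53379 identifiers were found. Protein-coding genes whose mean FPKM exceeded 5 in at least 1 group were fitted with limma 3.58.1 in R 4.3.3 on log2(FPKM + 1), which understates changes of low genes. The empirical Bayes step used a trend, there was no covariate, and p-values were adjusted by Benjamini-Hochberg over 7639 genes. Tested on simulated data for this comparison (7639 genes, 200 of them changed by a log2 fold change of 1), the fit called 209 genes, among them 197 of the 200 changed ones (98.5% recovered). The simulated noise was independent and normal, with the spread that the fitted trend gives each gene. Wider spreads, such as that of *Junb*, were not simulated, so this recovery does not give the power in the real data. Ratios used an exact permutation test (scipy 1.17.1). Similar transcripts were sought with blastn 2.17.0 (at least 90% identity over 150 bases).

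The members and lists were chosen with earlier results of these data known. The genes named are the 10 members, *Setd2*, *Foxp3*, the ID, E protein and Ikaros families, overlapping genes, and from each list those with an adjusted p below 0.05 and otherwise up to 5 with the smallest unadjusted p below 0.05. *Junb*, *Jun*, *Bhlhe41*, *Batf3*, *Klf3*, *Il10*, *Epcam*, *Krt18* and *Pecam1* were named after their values were seen. Alternatives were no filter or a mean FPKM above 1, a pseudocount of 0.1 or 5, all gene types, libraries rescaled to 1000000, median-centred or quantile-normalized, no trend, the replicate number as a block, and each library left out.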

Additional observations from a re-analysis of the deposited data

How the results depend on the processing

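The depth of the libraries is unknown, so the precision is the spread between 2 pools of mice. *Penk*, *Il1rl1*, *Id2*, *Bhlhe40*, *Batf* and *Ikzf3* kept their direction under all alternatives, and so did *Irf4* and *Ikzf1*. Where the groups did not overlap, leaving out a library could not have reversed it. The filters, the gene types, the trend and the block do not enter the estimate. *Nfil3* and *Prdm1* were positive without control 2 (0.16 and 0.12) and without KO 2 (0.08 and 0.08), with lowest values of -0.20 and -0.14 when other libraries were left out. The cause was not tested. *Penk* and *Il1rl1* lost the adjusted threshold with no filter, with no trend and without KO 1 or KO 2, and *Il1rl1* also with all gene types. *Cd83* and *Cxcr3* passed it without control 2, *Tnfrsf9* and *Pdcd1* without control 1, and *Cd83* and *Tnfrsf9* with the replicate block. With libraries left out in turn, the members called at an adjusted p below 0.05 numbered 0 to 1 and those lower at an unadjusted p below 0.05 numbered 1 to 2. The same range was 2 to 8 for the relatives and partners and 0 to 1 for the resting T cell factors, of which 1 was called with no trend.

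Same-numbered libraries did not deviate together (r = -0.305 across 7639 genes), so the numbers were not taken as pairs. With the replicate block, 2 relatives and partners passed the unadjusted threshold in place of 4, and over all genes 27 passed the adjusted one in place of 45. In the crossed pairing, chosen after seeing the data, 1 member passed the adjusted threshold and 2 were lower at the unadjusted one, with 9 relatives and partners, 2 resting T cell factors and, over all genes, 465 at the adjusted threshold. Other counts at the adjusted threshold over all genes were 11 with no filter, 13 with all gene types, 27 with a mean FPKM above 1, 3 with no trend, 2 without KO 1 and 3 without KO 2. At the unadjusted threshold, 1236 genes passed, compared with 796 under the block, 1991 in the crossed pairing, 2027 with no filter and 644 without KO 2.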
